A study of Saccharomyces cerevisiae with 2 samples.

Results

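Convergent intergenic regions are the stretches of DNA between genes that point at each other, so that the ends of both genes face the same gap. In budding yeast (Saccharomyces cerevisiae) they were followed on 2 tiling arrays (replicates 1 and 2) of 1 group. The members were taken from the annotation of the array: all non-control probes described there as lying downstream of a gene, outside mitochondrial DNA. The rule itself used no measured value, but it was chosen with earlier results of these data known. It gave 1913 probes out of 41775, named for 1289 genes, and 36 mitochondrial probes with the same description were left out. Neighbouring probes of 1 gap often carry the names of both genes, so the probes were joined into 996 regions, each a run of downstream probes with no other kind of probe between them, out of 4892 nuclear intergenic regions. Of these regions 621 held 1 probe, 187 held 2, 66 held 3 and 122 held 4 or more, with 16 at most. After spots of poor quality had been left out 1878 probes remained, and 961 regions had a value and a coding probe on each side.

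Cells held in G1 by the mating pheromone alpha factor gave both kinds of DNA. Chromatin cut with micrococcal nuclease, an enzyme that digests the linker DNA between nucleosomes, gave the nucleosomal DNA, which carried Cy5, and sheared chromatin gave the genomic DNA, which carried Cy3. The strain, its genotype and the medium are not given in the sources used here. Values are given as log2 of Cy5 over Cy3 after each array's median had been set to 0, so positive values stand for a larger share of nucleosomal DNA, as labelled, than at a typical probe. Dyes were not swapped between the arrays, so any dye bias stays in the values, and the sign is that of the channels as labelled; what it means for nucleosomes could not be settled from the files.

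A gene end carries the signals at which the transcript is cleaved, given its poly(A) tail and released from RNA polymerase II. A tandem gap, between an end and a start, also holds the promoter of the next gene, and a divergent gap holds the promoters of both neighbours. A convergent gap holds no promoter of either neighbour but the terminators of both, which makes it the place to look at intergenic DNA without promoter chromatin, in which regulatory factors and remodelling enzymes move nucleosomes.

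The annotation of the regions was checked against the names of the flanking genes. In 843 regions both neighbouring probes were coding, and in 835 of them (99.1%) the gene to the left lay on the Watson strand and the gene to the right on the Crick strand, as a convergent pair must. Another 4 had Crick genes on both sides and 4 had a name without a strand. The other 153 regions met a probe of another kind on at least 1 side, and there the nearest coding probe need not belong to the partner gene. No gene order was used to move a region into or out of the class.

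The arrays repeated each other closely at the convergent probes. Over the 1878 probes replicate 1 minus replicate 2 had an SD of 0.076, against an SD of 0.97 from probe to probe, and 97.4% of the probes had the same sign on both arrays. In Cy5 67 of them (3.57%) were saturated on both arrays and stayed in, so their ratios are lower bounds unless Cy3 was saturated too. The arrays shared 1 slide, and the labels do not name separate cultures for them. The limma p-values below therefore cover only how these arrays differ, a spread that may be technical. The number of arrays limits the precision, and with 2 of them an exact sign-flip test reaches 0.5 at the lowest, so classes of regions are described and not tested against each other.

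Convergent probes lay on average slightly above the array median. Their median was 0.19 on replicate 1 and 0.21 on replicate 2 (0.20 ± 0.0096, SD, n = 2 arrays), and the middle 50% of probes ran from -0.34 to 0.85. Tandem probes had a median of 0.53 ± 0.0042, divergent probes 0.62 ± 0.017 and coding probes -0.11 ± 0.00066. Convergent DNA thus had a median between that of coding DNA and that of the gaps with promoters. Promoters are generally described as poor in nucleosomes, yet the gaps that hold them lay on the side labelled nucleosomal, which leaves the direction of the ratio in doubt. In the limma test over all kept probes (Benjamini-Hochberg adjusted p under 0.05) 1061 convergent probes were above 0 (56.5%), 709 below (37.8%) and 108 did not pass. Over all 41454 kept probes 46.9% were above and 47% below. After normexp background correction, which starts from the raw brightness, 1033 convergent probes were above and 457 below. Uncentred values, which lay lower by the array medians of -0.13 and -0.13, gave 947 above and 813 below. The shares over all kept probes are given for the main processing only, so these counts have no background beside them.

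The level showed no steady trend with the number of probes that a gap holds. By the number of downstream probes carrying 1 gene name, the median was 0.17 ± 0.0059 for names with 1 probe (983 probes), 0.33 ± 0.015 for 2 (290), 0.32 ± 0.0034 for 3 (182) and 0.15 ± 0.0083 for 4 or more (423). The middle classes lay higher than the outer classes on both arrays. In tandem gaps the median was 1.11 ± 0.028 for names with 1 probe, 0.63 ± 0.0074 for 2, 0.51 ± 0.014 for 3 and 0.32 ± 0.0058 for 4 or more, lower at each larger size. When probes were grouped by region instead, convergent medians were 0.18, 0.17, 0.36 and 0.19 for 1, 2, 3 and 4 or more probes, so the value for 2 probes depends on the grouping.

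The next question was how a gap differs from the coding DNA at its own edges. Each region was set against the mean of the nearest kept coding probe on its left and on its right. The median difference was 0.27 on replicate 1 and 0.29 on replicate 2 (0.28 ± 0.015, SD, n = 2 arrays). Of the 961 convergent regions 570 were higher than their flanks (59.3%), 328 were lower (34.1%) and 63 did not pass (limma over all intergenic regions, adjusted p under 0.05). Over all 4813 intergenic regions 71.5% were higher and 23.9% lower. The convergent share of higher calls thus lay below the background and that of lower calls above it, a difference that was not tested. The sign was the same on both arrays for 940 of the 961. After normexp 501 were higher (52.1%) and 127 lower (13.2%), with a median of 0.53. Tandem regions then had 64.8% higher and 10.7% lower, and divergent ones 62.9% and 12.9%, so the lower shares lay close together. After loess within arrays 523 convergent regions were higher (54.4%) and 362 lower (37.7%), with a median of 0.14. Tandem regions then had 72.3% higher and 23.2% lower, and divergent ones 73.2% and 21.1%. Normexp turned the sign of 182 convergent regions (18.9%) and loess that of 118 (12.3%).

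The distance to the promoter classes was widest among the shortest gaps. Regions with 1 probe had a median difference from their flanks of 0.21 ± 0.0035 when convergent, with 340 of 601 higher and 230 lower, against 1.12 ± 0.0050 when tandem and 1.07 ± 0.026 when divergent. With 2 probes the convergent median was 0.37 ± 0.0034 (118 of 183 higher, 51 lower), with 3 probes 0.32 ± 0.035 (43 of 64 higher, 16 lower) and with 4 or more 0.29 ± 0.019 (69 of 113 higher, 31 lower). From 1 probe to 4 or more, the convergent shares were 56.6%, 64.5%, 67.2% and 61.1% higher, and 38.3%, 27.9%, 25% and 27.4% lower. Tandem regions had 72.6%, 77.2%, 73.6% and 75.2% higher, and 24.2%, 19.1%, 20.8% and 18.6% lower. Divergent regions had 70.8%, 73.1%, 78.7% and 79.6% higher, and 26.7%, 23.3%, 15.98% and 15.8% lower. The shares by size were not tested against each other. The tandem median exceeded the convergent one by 0.91 ± 0.0086 at 1 probe, 0.43 ± 0.0073 at 2, 0.44 ± 0.011 at 3 and 0.31 ± 0.025 at 4 or more. The divergent median exceeded it by 0.86 ± 0.030 at 1 probe and by 0.50 ± 0.031 at 4 or more. In all 4 sizes and on both arrays the convergent median was the lowest of the 3 classes. These values by size are those of the main processing. Over all sizes the main medians were 0.28 convergent, 0.83 tandem and 0.88 divergent. After normexp they were 0.53, 0.85 and 0.85, so the classes lay closer together, and after loess 0.14, 0.69 and 0.76. Both promoter classes had lower medians among large regions. From 1 probe to 4 or more the tandem median went from 1.12 to 0.59 and the divergent one from 1.07 to 0.79. The convergent one stayed between 0.21 and 0.37.

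**Figure D1:**
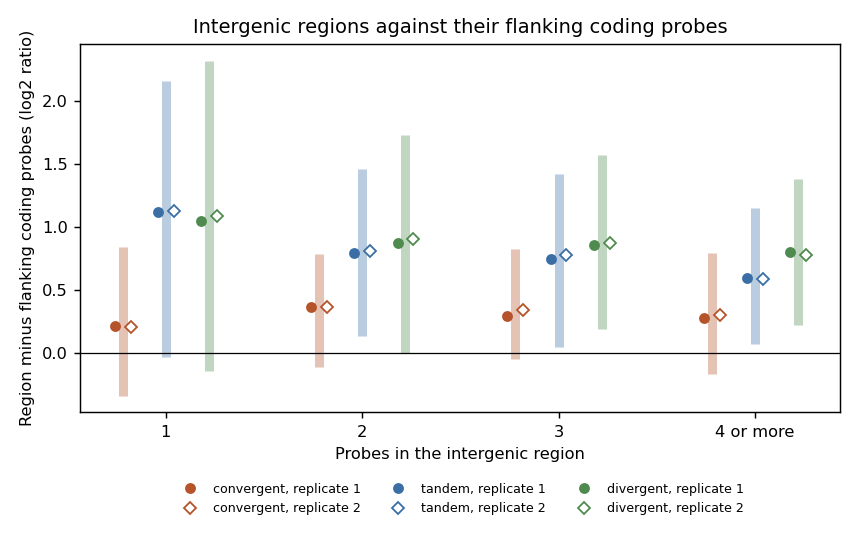
Median difference (log2 ratio) between an intergenic region and the nearest coding probe on each side, by the number of probes in the region, for convergent, tandem and divergent regions. Filled circles are replicate 1, open diamonds replicate 2 and bars the middle 50% of regions. Convergent medians stay between 0.21 and 0.37, below both other classes at every size, and every bar of the convergent class reaches below 0.

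Regions were also placed relative to each flank on its own. On both arrays 417 convergent regions (43.4%) stood above both flanking probes, 201 (20.9%) stood below both and 343 lay between them or changed place. Of the tandem regions 63.7% stood above both flanks and 12.2% below both, and of the divergent regions 62.2% and 11.9%. A convergent gap could thus be a local high or a local low point, and high points outnumbered low ones in all 3 classes. These shares were not tested against each other.

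The distance between the flanking coding probes was 575 bp at the median for 833 regions with coding probes next to them on both sides, from 266 to 10060 bp. Where it was at most 400 bp (121 regions) the median difference was 0.10 ± 0.029, with 62 regions higher (51.2%) and 51 lower (42.1%). It was 0.31 ± 0.020 between 400 and 600 bp (329 regions), 0.34 ± 0.015 between 600 and 1000 bp (261), 0.41 ± 0.0067 between 1000 and 2000 bp (90) and 0.30 ± 0.057 above 2000 bp (32). The median difference was thus smallest in the narrowest gaps, where the shares of higher and lower calls lay closest together. Above 2000 bp 62.5% were higher and 21.9% lower. Over all intergenic regions 71.5% were higher and 23.9% lower.

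Among regions with 1 probe the highest was that between YCG1, a condensin subunit gene, and YSP2, which acts in sterol transport. Its probe (chromosome 4, 1120383 to 1120442) read 3.53 and 3.51 on replicates 1 and 2, against -0.40 and -0.37 at the coding probe on the YCG1 side and -0.095 and -0.088 on the YSP2 side. The difference was 3.76 ± 0.030 (SD, n = 2 arrays), with an adjusted p of 2.43e-12 (limma), the lowest of all convergent regions. The gap between YLR177W and TFS1, an inhibitor of carboxypeptidase Y, read 3.03 and 3.00 and stood 3.22 ± 0.0051 above its flanks. The gap between TYW1, of tRNA modification, and PGC1, a phospholipase gene, read 3.45 and 3.56 and stood 3.21 ± 0.10 above them. KAR4, a transcription factor gene of the pheromone response, had a downstream probe (chromosome 3, 29224 to 29280) of 3.07 and 2.94. It stood 3.22 ± 0.085 above its flanks, but its right flank lay 2278 bp away beyond promoter probes. In all 4 regions a single probe was far above both flanks on both arrays.

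Values of this size were also found in wider gaps. Downstream of YCF1, a vacuolar transporter of glutathione conjugates, 2 probes read 4.90 and 4.83 (chromosome 4, 722504 to 722563) and 2.99 and 2.94 (722758 to 722817). The first had the highest value of the 1878 convergent probes, at 4.87 ± 0.051. The region stood 3.26 ± 0.012 above its flanks, and 2.02 after normexp. Promoter probes lay next to it on the left, and its left flank was 2278 bp away beyond them. The gap between RPL2B, a ribosomal protein gene, and VID28 (chromosome 9, 317905 to 318130) had probes of 2.11 and 1.73 (means of both arrays) and stood 2.41 ± 0.045 above its flanks. The gap between BAS1, a transcription factor gene of purine and histidine synthesis, and SKG1 had probes of 1.02 and 1.99 and stood 2.40 ± 0.037 above them. Next to NNF2 the difference was 3.40 ± 0.080 on 1 probe of 3.22 and 3.17, in a gap that holds a tRNA gene by gene order. Its other probe was too dim in Cy3 to be kept, and the right flank lay 2176 bp away beyond promoter probes. With no filter on spots the difference was 1.91.

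In gaps with 3 probes a high mean came with unlike values from probe to probe. Between ATG1, the kinase gene that starts autophagy, and TOS3 (chromosome 7, 162815 to 163344) the probes read 1.69, 3.81 and 0.83 from left to right (means of both arrays), and the region stood 2.34 ± 0.013 above its flanks. Between MTC2 and YKL096C-B (chromosome 11, 257569 to 258557) they read 2.92, 0.72 and 4.85, the last being the second highest convergent probe, and the region stood 1.96 ± 0.069 above its flanks. So the centre of the ATG1 gap was its high point, and the centre of the MTC2 gap its low point. Between STI1, a co-chaperone gene of Hsp90, and CIN5 the probes read 0.65, 1.86 and 2.16, with a difference of 1.94 ± 0.015. Between SND3 and IML3, a kinetochore gene, 2 probes of 3 were kept, at 2.17 and 0.12, with a difference of 1.66 ± 0.021. The middle probe, which was left out, read 2.02 and 2.03 on replicates 1 and 2. With no filter on spots the difference was 1.95.

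Of the regions with 4 or more probes, that downstream of PEP8, a retromer subunit gene, was the highest relative to its flanks. Its 4 probes read 1.07, 2.59, 1.17 and 2.04 (means of both arrays) and the difference was 2.50 ± 0.050. On its right lay divergent promoter probes, with the coding probe of TDH1, a glyceraldehyde-3-phosphate dehydrogenase gene, 582 bp away. The gap between PRP39, of the U1 snRNP, and RRN11, of RNA polymerase I initiation, stretched from 183416 to 190115 on chromosome 13 and holds a tRNA gene. Of its 4 probes 3 were kept, at 2.47, 1.68 and -0.18 from left to right, so the probe near RRN11 was below 0. The probe nearest PRP39 was left out and read 0.00080 and -0.039 on replicates 1 and 2. The difference was 2.36 ± 0.040, and 1.45 against both whole genes. With no filter on spots it was 2.02. Between MGA1 and RIE1 the 8 probes ran from -0.55 to 3.29, 7 of them above 0, with a difference of 1.92 ± 0.0073. Cy5 was saturated at its lowest probe on both arrays. Between DOM34, of ribosome rescue, and CIT1, citrate synthase, the 5 probes ran from 0.11 to 3.12, and the difference of 1.82 ± 0.0075 became 1.16 after normexp. Adjusted p of the regions named so far ran from 2.43e-12 to 5.25e-11 (limma).

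The regions farthest below their flanks were less extreme than the highest ones. Next to RPS21B, a ribosomal protein gene, 1 probe (chromosome 10, 156210 to 156269) read -0.95 and -0.96, while the coding probe on the left read 1.79 and 1.76 and that on the right 0.80 and 0.76. The difference was -2.23 ± 0.019 (SD, n = 2 arrays; limma adjusted p = 1.09e-11), and -1.13 against 3 coding probes a side. High flanks added to such a difference. Next to MRPL50, a mitochondrial ribosomal protein gene, the gap read -0.79 and -0.79 between flanks of 1.37 and 1.33 on the left and 1.43 and 1.48 on the right, a difference of -2.19 ± 0.00043. Between YJL193W and SOP4 the probe itself was among the lowest of the class at -1.87 and -1.87, and the difference was -2.12 ± 0.0095. After normexp that difference was 0.028 and no longer passed (limma adjusted p = 0.886).

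Low regions with several probes were often low in only some of them. Between MET13, of folate metabolism, and MON1, of vacuole fusion, the probes read -1.62 and -0.59 and the difference was -1.85 ± 0.042. Between COS8, a member of a subtelomeric family with near-identical copies, and ARN2, a siderophore transporter gene, 1 probe was at 0.0013 and the other at -1.48, with a difference of -1.41 ± 0.034. Next to COQ8, of ubiquinone synthesis, the probes read 0.57 and -2.31, with a difference of -1.06 ± 0.011. That gap holds a tRNA gene and its right flank lay 2302 bp away beyond promoter probes. After normexp these 3 differences were 0.055, 0.40 and 0.76. The first 2 no longer passed (limma adjusted p = 0.759 and 0.112), and that of COQ8 passed in the other direction (limma adjusted p = 0.0180). With 3 coding probes a side they were -1.18, -0.87 and -0.66, and with whole genes the first 2 were -1.05 and -0.83.

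The 3 lowest gaps of 3 probes each began with a probe above 0. Between STE11, the kinase gene at the top of the mating cascade, and NMD4 the probes read 0.62, -1.09 and -0.033, with a difference of -0.88 ± 0.041. Between MPT5, an mRNA-binding Puf protein gene, and YGL176C they read 0.35, -0.79 and -0.87, with a difference of -0.82 ± 0.052. Between FRE4, a ferric reductase gene, and YNR061C they read 0.18, -0.70 and -0.57, with a difference of -0.80 ± 0.067. In each of them the middle probe was below 0. With 3 coding probes a side the first 2 differences were -0.57 and -0.34, with whole genes they were -0.47 and -0.47, and after normexp that of FRE4 no longer passed (-0.31, limma adjusted p = 0.119).

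Among gaps of 4 or more probes the lowest relative to its flanks was that next to SPB4, a helicase gene of ribosome assembly. Its 5 probes ran from -1.29 to 0.42, and the difference was -1.33 ± 0.032. The left flank lay 6772 bp away beyond promoter probes, and a tRNA gene lies in the gap. The difference was -0.45 with 3 coding probes a side and 0.0096 after normexp (limma adjusted p = 0.960). The 6 probes named for HMRA2, at the silent mating locus HMR, read -0.82, -0.80, -0.99, -0.34, 1.92 and -1.14. The difference was -1.12 ± 0.029 from coding probes 2715 and 878 bp away, beyond promoter probes on both sides. Parts of this locus are near-identical to other mating-type loci, so these signals may be shared between copies. In the gap of BER1 and YLR412C-A (5 probes from -1.20 to 1.51) the region mean was 0.31 and 0.32, above the BER1 flank at -0.65 and -0.55. Its difference of -1.08 ± 0.038 came from the YLR412C-A flank, at 3.48 and 3.30, and was -0.18 with 3 coding probes a side. Cy5 was saturated on both arrays at the probe of 1.51, which makes the top of the range a bound, and without saturated spots the difference was -1.38. Adjusted p of the 12 low regions chosen by size ran from 1.09e-11 to 1.72e-08 (limma).

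**Figure D2:**
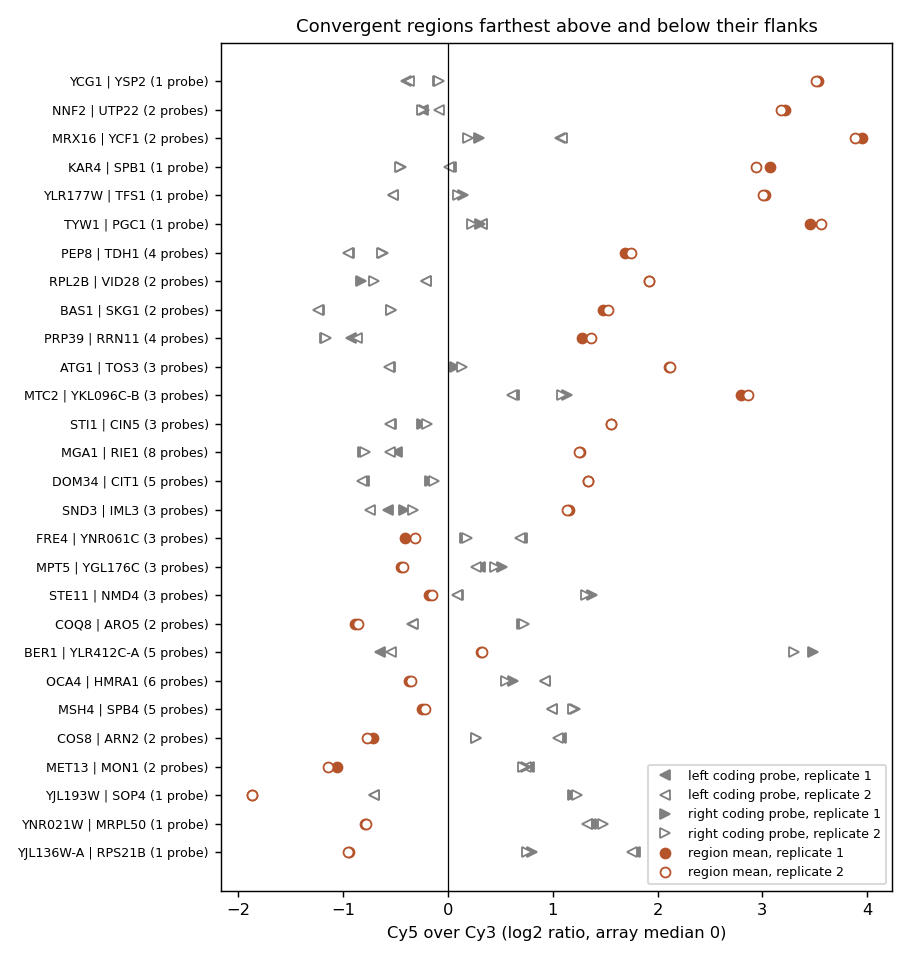
Log2 ratio of Cy5 over Cy3 for the convergent regions farthest above or below their flanks, by number of probes. Circles are the region means and triangles the nearest coding probe on the left and on the right, filled for replicate 1 and open for replicate 2. In the upper 16 rows the region lies to the right of both flanks, and among the lower 12 the region of BER1 and YLR412C-A lies between its flanks.

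Convergent regions next to members of 6 gene lists were described in the same way, beside all 961, of which 59.3% were higher and 34.1% lower with a median of 0.28. Over all intergenic regions 71.5% were higher and 23.9% lower. Ribosomal protein genes had 60 such regions, with 42 higher than their flanks, 15 lower and 3 not passing, and a median of 0.49 ± 0.026. They ran from the RPL2B gap to the RPS21B gap described above. Ribosome assembly genes had 34 regions, 19 higher and 13 lower, with a median of 0.27 ± 0.034. The highest lay next to NOP2, an rRNA methyltransferase gene, where the probe read 2.20 and 2.16 and the difference was 2.32 ± 0.028. The lowest lay between DRS1, a helicase of large subunit assembly, and LMO1, where the probe read -1.17 and -1.14 and the difference was -2.02 ± 0.055, or -0.93 after normexp and -1.32 against whole genes.

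The smaller lists held 3 to 9 regions each, too few for their counts to be read against the 59.3% higher and 34.1% lower of all convergent regions. Glycolysis and fermentation genes had 8 (4 higher, 2 lower, median 0.11 ± 0.023). ENO1, an enolase gene, read 1.35 and 1.52 downstream, 1.76 ± 0.14 above its flanks and 1.16 above 3 coding probes a side. TPI1, triose phosphate isomerase, shared with VMS1 a gap of 2 probes at -1.19 and -0.49, with a difference of -0.70 ± 0.049 that passed in the other direction after normexp (1.05, limma adjusted p = 0.00330) and was -1.12 after loess. Pheromone response and a-specific genes had 9 regions (5 higher, 4 lower, median 0.15 ± 0.0031), from KAR4 to STE4, the beta subunit gene of the receptor's G protein. The probe between STE4 and SAS5 read -1.23 and -1.27, with a difference of -1.34 ± 0.018 that was -2.04 after loess and 0.44 after normexp (limma adjusted p = 0.0771).

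Cyclin genes had 6 regions (2 higher, 3 lower, median -0.078 ± 0.033). Between CDC24 and CLN3, the G1 cyclin gene that acts first, the probe read -0.15 and -0.18, below 0 but 0.97 ± 0.040 above its low flanks. That difference was 0.19 with 3 coding probes a side and -0.062 against whole genes. Between CLB4, a mitotic cyclin gene, and ATG38 the probe read 0.50 and 0.64, above 0 but -0.32 ± 0.084 relative to its flanks. That difference was -0.57 after loess and 0.13 against whole genes, and it did not pass after normexp (-0.16, limma adjusted p = 0.380) or with 3 coding probes a side (-0.031, limma adjusted p = 0.498). Histone genes had 3 regions, all higher, with a median of 0.75 ± 0.020. HTA2, an H2A gene, was the highest at 1.16 ± 0.012 and HTB2, an H2B gene, the lowest at 0.082 ± 0.033. The HTB2 value was 0.39 with 3 coding probes a side, and it did not pass after normexp (0.25, limma adjusted p = 0.211) or loess (-0.023, limma adjusted p = 0.571).

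Probes within 1 region often differed widely. In 184 regions with 2 kept probes the median range was 0.83, and 91 of them (49.5%) held 1 probe above 0 and 1 below, each on both arrays. The 68 regions with 3 kept probes had a median range of 1.47, with both signs in 46, and the 119 with 4 or more had one of 2.38, with both signs in 108 (90.8%). A range grows with the number of probes by construction, so the sizes are not compared. All 3 medians are large beside the SD of 0.076 between arrays, but the SD over all convergent probes was 0.97. Of all kept convergent probes 59.3% on replicate 1 and 59.6% on replicate 2 lay above 0. Unrelated probes would therefore often differ in sign too. No comparison with unrelated probes or with other classes was run. Over the 184 regions of 2 probes, the left and the right probe had a Pearson correlation of 0.041, a value given as a description because regions are not replicates. 

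The 3 largest gaps showed this position by position. Between MID2, a cell wall stress sensor gene, and RPS25B (chromosome 12, 791780 to 795599) lay 16 probes, in a gap with 1 tRNA gene and 3 snoRNA genes by gene order. Where Cy5 was not saturated the highest were at 2.03 ± 0.028 (795366 to 795424), 1.98 ± 0.076 (795195 to 795254) and 1.96 ± 0.021 (793864 to 793923), and the lowest at -0.68 ± 0.016 (792211 to 792270). Cy5 was saturated on both arrays at the probe of 1.73 (794131 to 794190), which therefore has no rank among them. Of the 5 probes above 1 in this gap 4 carried the name of RPS25B, and the region stood 1.04 ± 0.010 above its flanks, or 0.63 by the median of its probes.

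The gap between FDC1 and IRC4 (chromosome 4, 1513703 to 1517130, within 20 kb of the chromosome end) held 13 probes. They ran from -0.96 ± 0.012 to 1.09 ± 0.0015, and the difference from its flanks was 0.21 ± 0.017, which became 0.48 with 3 coding probes a side and did not pass after normexp (0.19, limma adjusted p = 0.336). Between YCL001W-B and CDC10, a septin gene (chromosome 3, 114154 to 117285), 13 probes ran from -1.11 ± 0.044 to 1.43 ± 0.024. Their mean did not differ from the flanks beyond the test (-0.037 ± 0.0086, limma adjusted p = 0.218). The difference was -0.11 after loess (limma adjusted p = 0.0135), -0.018 with 3 coding probes a side, and it passed above 0 against whole genes (0.21) and by the median of the probes (0.17). After normexp it was 0.24 and did not pass (limma adjusted p = 0.200). In this gap high and low probes lay side by side, and the region mean was 0.029 and 0.018 on replicates 1 and 2. It lay between unlike flanks, at -0.66 and -0.66 on the left and 0.78 and 0.78 on the right.

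**Figure D3:**
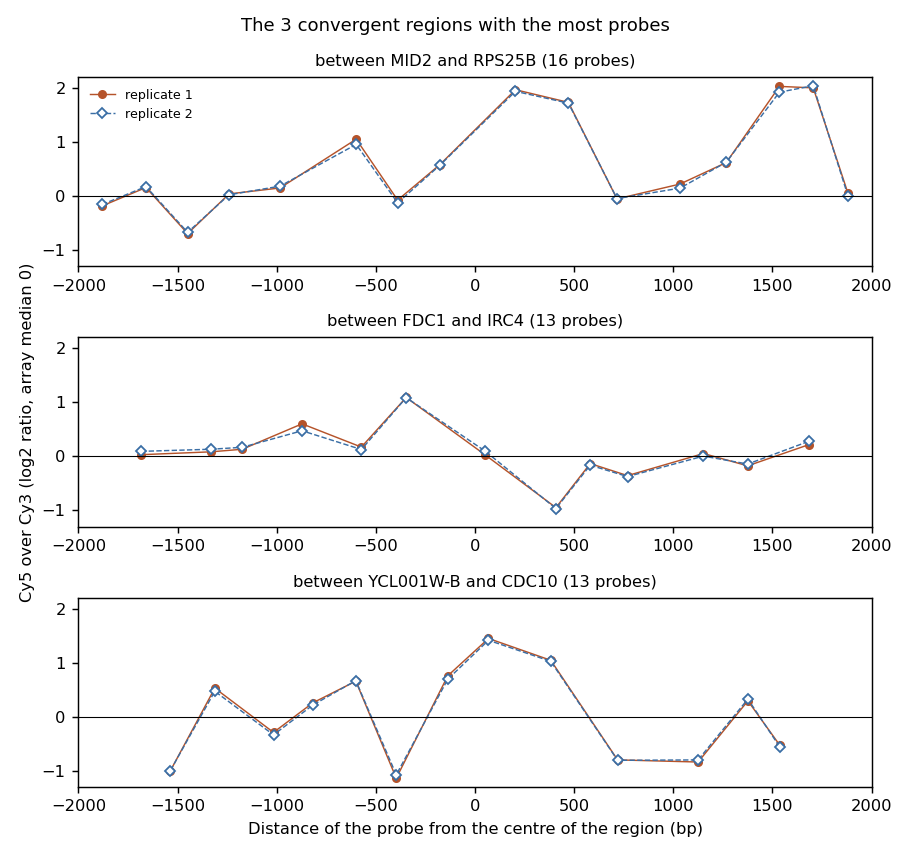
Log2 ratio of Cy5 over Cy3 along the 3 convergent regions with the most probes, by distance of the probe from the centre of the region in bp. Circles with a solid line are replicate 1 and diamonds with a dashed line replicate 2. The lines of both arrays nearly coincide, while the probes within a region range from -0.68 to 2.03 (MID2 and RPS25B), -0.96 to 1.09 (FDC1 and IRC4) and -1.11 to 1.43 (YCL001W-B and CDC10).

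In regions with 3 or more kept probes the inner probes were compared with the first and last one. Of 187 convergent regions 97 were higher inside (51.9%), 82 lower (43.9%) and 8 did not pass, with a median of 0.13 ± 0.0068 (SD, n = 2 arrays). Over all 1427 intergenic regions of that kind 54.1% were higher inside and 42.4% lower, so convergent regions were near the background. The extremes were the gap of YOR296W and TIM18, whose inner probe stood 3.37 ± 0.0093 above the outer ones, and that of MTC2 and YKL096C-B at -3.17 ± 0.014. The gap of NCE103 and YNL035C, with 6 kept probes, was at -2.62 ± 0.0091. These regions were picked as extremes after their values were seen. After normexp 57 convergent regions were higher inside and 47 lower, with a median of 0.035, and without saturated spots the median was 0.055. The shares over all intergenic regions are given for the main processing only, so the normexp counts have no background beside them.

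Single convergent probes reached far to both sides. Of the 1878, 395 (21.0%) lay above 1, 110 (5.86%) above 2 and 29 (1.54%) above 3, while 101 (5.38%) lay below -1 and 3 (0.16%) below -2. High values were thus more frequent and farther out than low ones. After those of YCF1 and YKL096C-B came CMR2 at 4.21 ± 0.15, VBA4 at 4.13 ± 0.050 and SKN1, of glucan synthesis, at 4.06 ± 0.043. The lowest probes were those of TAH11, a licensing factor gene of DNA replication, at -2.84 ± 0.048 (chromosome 10, 523894 to 523953), APC11, a subunit gene of the anaphase-promoting complex, at -2.51 ± 0.030, and COQ8 at -2.31 ± 0.046. These probes too were picked after their values were seen.

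The flanks were examined in their own right, since a low flank raises the difference. For 1409 genes whose end faces a convergent region, the last coding probe was compared with the mean of the other coding probes of the gene. It was higher in 650 (46.1%), lower in 670 (47.6%) and did not pass in 89, with a median of -0.013 ± 0.0030. Over all 4307 genes 47.3% were higher and 46.1% lower at the end, so ends facing a convergent region were near the background in both directions. The median was 0.00060 after normexp and 0.042 after loess, so its sign depends on the processing. The extremes, picked after their values were seen, were CHO2, of phosphatidylcholine synthesis, at 2.79 ± 0.014 and RSM18, a mitochondrial ribosomal protein gene, at -2.83 ± 0.032.

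The left and right sides of a convergent region differed, a pattern noticed in these data and given without a test. Coding probes of Watson genes had a median of -0.23 ± 0.0046 and those of Crick genes 0.020 ± 0.0044, with Crick higher by 0.25 ± 0.0090 (0.17 after normexp and 0.28 after loess). On all 16 chromosomes Crick genes were higher, by 0.13 to 0.31. The flank on the left of a convergent region, a Watson gene, had a median of -0.15 and that on the right, a Crick gene, 0.0097. The step from the flank into the region was larger on the left, at 0.42 ± 0.0047 over 813 regions, than on the right, at 0.13 ± 0.0086. In the 550 of them with 1 probe both steps use the same region probe, so there the left step minus the right one (0.21 ± 0.0041) is the difference between the flanks and nothing else. After normexp it was 0.083 on replicate 1 and -0.0086 on replicate 2 in these regions, and after loess 0.33 ± 0.0014.

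Within the gap itself the sides can be compared only where there are several probes. In regions with 2 kept probes the left probe exceeded the right one by 0.33 on replicate 1 and 0.28 on replicate 2 at the median. The left probe was the higher one on both arrays in 108 of 184 regions and the right one in 73 (103 and 71 after normexp, 107 and 73 after loess, settings chosen for this count after seeing the data). Convergent probes named for a Watson gene had a median of 0.27 ± 0.010 and those named for a Crick gene 0.12 ± 0.0027. Inside convergent gaps the Watson side was thus the higher one, whereas among coding probes it was the lower one. The higher left probe was not particular to these gaps. Among gaps of 2 probes the left and right medians were 0.87 and 0.47 in tandem and 0.88 and 0.35 in divergent ones. With 3 probes the outer left and right medians were 0.56 and 0.15 in convergent and 0.68 and 0.38 in divergent gaps. In tandem gaps of 3 probes the order turned, at 0.36 and 0.42. With 4 or more probes they were 0.42 and 0.24 in convergent, 0.52 and 0.38 in tandem and 0.56 and 0.38 in divergent gaps. In divergent gaps the gene on the left lies on the Crick strand. Tandem probes named for a Crick gene were higher (0.60) than those named for a Watson gene (0.48).

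**Figure D4:**
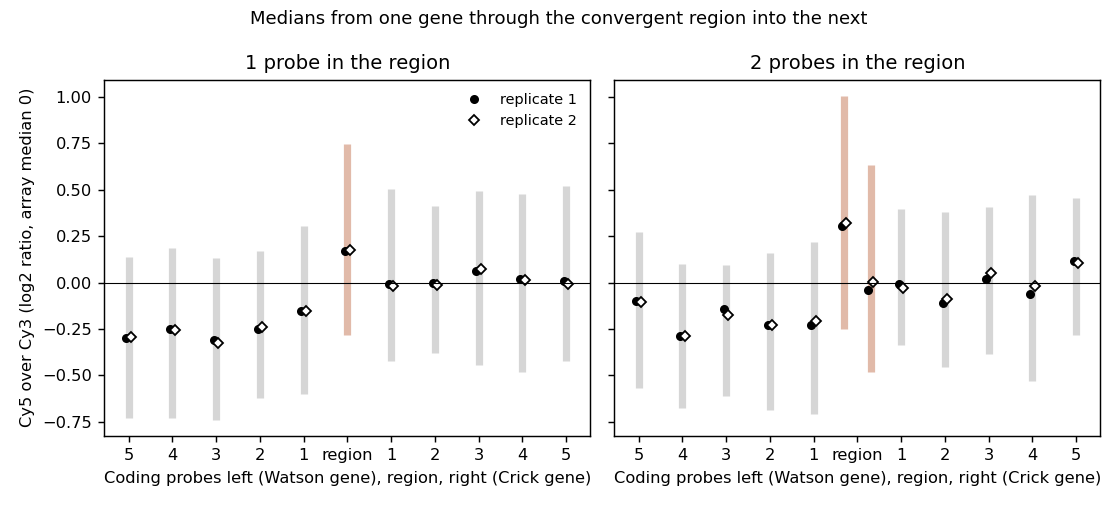
Median log2 ratio of Cy5 over Cy3 (array median 0) across convergent regions with 1 probe (left panel) and 2 probes (right panel), from the fifth coding probe on the left, where the gene lies on the Watson strand, to the fifth on the right, on the Crick strand. Circles are replicate 1, diamonds replicate 2 and bars the middle 50% of probes. With 1 probe the region (0.17) stands above the nearest coding probe on the left (-0.15) and on the right (-0.013), and with 2 probes the left probe (0.31) is higher than the right one (-0.020).

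Some convergent gaps hold genes of non-coding RNA. By gene order 108 of the 961 regions contain a tRNA, small nuclear or small nucleolar RNA gene. These had a median difference from their flanks of 0.35 ± 0.049, with 71 higher (65.7%) and 30 lower (27.8%). The 853 without one had 0.27 ± 0.0081, with 499 higher (58.5%) and 298 lower (34.9%). Over all 4813 intergenic regions 71.5% were higher and 23.9% lower. Regions with a tRNA gene (93) had 0.28 ± 0.028 and those with a small nucleolar RNA gene (15) 0.41 ± 0.026. Gaps with an RNA gene held more probes (median 4, against 1), and the part of size in the difference was not tested. In the outer 20 kb of the chromosomes 42 regions had a median of 0.11 ± 0.0038, with 22 higher (52.4%) and 14 lower (33.3%). The 919 others had 0.29 ± 0.016, with 59.6% higher and 34.2% lower. Subtelomeric families have near-identical copies, so signals there may be shared between loci.

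The level varied between chromosomes. The median of convergent probes ran from -0.18 on chromosome 1 (52 probes) to 0.41 on chromosome 9 (72 probes) and was above 0 on 15 of 16 chromosomes on both arrays. The median difference from the flanks ran from -0.042 on chromosome 1 (11 regions) to 0.49 on chromosome 8 (43 regions). Chromosome 1 was the lowest in both measures and had the fewest regions.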

How the data were processed

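Each of 2 two-colour arrays compared nucleosomal DNA (Cy5) with genomic DNA (Cy3), both as labelled, after linear amplification per the labels' protocols. Raw and processed spot intensity were taken from the deposited scanner files; the processed intensity comes from background subtraction, detrending and dye scaling in Agilent Feature Extraction 9.1.3.1, per the file headers. They also give a log10 ratio per the file headers, which was not used, and a deposited value table of log2 ratios served as an alternative. Coordinates are those of the array annotation, whose genome build was not given in the sources used here.

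From the processed intensities log2 ratios were computed and centred on each array's median over 41775 non-control probes. Probes flagged as non-uniform (13 convergent ones) or dim in Cy3 (22) were left out, and saturated spots were kept. Differences were tested against 0 with limma 3.58.1 (intercept, eBayes, 1 residual degree of freedom) in R 4.3.3, with Benjamini-Hochberg adjustment over the whole table at 0.05. The same steps were tested on simulated data. Median raw brightness was 32997 (Cy5) and 17885 (Cy3) on replicate 1 and 33242 and 16928 on replicate 2, over local backgrounds of 57 to 80.5.

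Gene names followed a table of yeast genes (R64, names, strand and order only), in which 5548 of 5569 array names matched. The regions named are the 4 highest and 3 lowest differences from the flanks at each number of probes (1, 2, 3, 4 or more), past the threshold with 1 sign on both arrays, the 3 regions with the most probes, and the highest and lowest region of each list. The members, lists and rules were chosen with earlier results of these data known, and the joining of probes into regions was settled after the files were seen. Alternatives were normexp (offset 50), loess, no centring, the value table, the spot filters, other flanks (3 coding probes, whole genes, within 500 bp, adjacent probes only), region medians, leaving out RNA genes or the outer 20 kb, and single arrays.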

Additional observations from a re-analysis of the deposited data

How the results depend on the processing

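Other flanks, region medians, RNA genes and the outer 20 kb bear only on the difference between regions and flanks, and the other results were run under the remaining alternatives. Under those run, every median kept its sign except that of the gene ends. The difference between regions and flanks had 570 higher and 328 lower regions. With normexp 127 were lower and the median was 0.53, with loess it was 0.14, with 3 coding probes a side 0.30, with region medians 0.26, with adjacent coding probes only 0.30 and with probes grouped by gene name 0.25, the last 2 chosen after seeing the data. Single arrays gave 0.27 to 0.29. For probes against 0, normexp left 457 below with a median of 0.45, and the median was 0.083 with loess, 0.073 without centring and 0.19 to 0.21 on single arrays. Inner minus outer probes gave 57 higher and 47 lower with a median of 0.035 after normexp, and medians of 0.11 with loess, 0.11 with no filter, 0.055 without saturated spots and 0.12 to 0.13 on single arrays. The gene-end median turned to 0.00060 with normexp and 0.042 with loess, and was -0.015 to -0.011 on single arrays.

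Medians for gene names with 1, 2, 3 and 4 or more probes were 0.41, 0.58, 0.63 and 0.41 with normexp, 0.064, 0.16, 0.19 and 0.014 with loess, and 0.046, 0.21, 0.19 and 0.025 without centring. Without saturated spots the first 3 were 0.19, 0.36 and 0.33, and with no filter that of 3 probes was 0.30. Single arrays gave 0.17 to 0.18, 0.32 to 0.34, 0.32 to 0.32 and 0.15 to 0.16.

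Of 40 named regions 28 kept their sign and their side of the threshold after normexp and 38 after loess. Normexp gave the opposite sign past the threshold for COQ8 and ARO5 (0.76) and VMS1 and TPI1 (1.05). It ended the call, with a value on the other side of 0, for MET13 and MON1 (0.055), COS8 and ARN2 (0.40), STE4 and SAS5 (0.44), YJL193W and SOP4 (0.028) and MSH4 and SPB4 (0.0096). YCL001W-B and CDC10, not called before, stood at 0.24 and did not pass. With loess HTB2 and ECM15 no longer passed (-0.023). With whole genes as flanks CDC24 and CLN3 (-0.062) and CLB4 and ATG38 (0.13) passed with the opposite sign and YCL001W-B and CDC10 passed at 0.21, as it did by the median of the probes (0.17). The cause of these moves was not tested.

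No paired analysis was possible because the arrays form 1 group. The planned check of G+C content was not run, since it needs probe sequences that were not used here. Saturation and dim Cy3 limit the extremes.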
